A study of Mus musculus with 4 samples.

Results

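The genes described here encode glycoproteins and proteoglycans of the extracellular matrix and the enzymes that crosslink or process it. They were listed by gene symbol, with collagens, laminins and metalloproteinases left out, and all 50 were found among the 32681 genes of the deposited table. RNA sequencing covered 4 primary neuronal cell cultures from the embryonic day 13 neocortex of wild-type CD-1 mice, an outbred strain, grown in Neurobasal medium with B27 supplement. Control shRNA, a short hairpin RNA, had been transfected into 2 cultures and DcpS shRNA into the other 2, to find transcripts that depend on DcpS. DcpS is an enzyme of mRNA turnover: it breaks down the free cap that remains after an mRNA has been degraded from its 3′ end. Both DcpS shRNA libraries carry the same hairpin name in their titles, so the comparison rests on 1 hairpin. Nothing in the labels says that each culture had its own litter, so the spread behind the p-values is that between these libraries and may be technical.

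The extracellular matrix is a network of secreted proteins and sugar chains that supports cells and stores signals. Adhesive glycoproteins such as fibronectin bind cells through integrins, and matricellular proteins such as thrombospondins, periostin and the CCN family tune that contact without building the scaffold. Small leucine-rich proteoglycans bind collagen fibrils, fibrillins build microfibrils on which elastin is laid down, lysyl oxidases crosslink collagen and elastin, and nidogens, perlecan and agrin belong to basement membranes. In the brain, fibrous matrix is made largely by fibroblasts of the meninges and vessels, whereas neurons and glia make lecticans and tenascins.

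The libraries held 17754768 to 21793685 reads. Dcps was at 499.8 and 506.6 normalised reads in the controls and at 114.5 and 119.6 with DcpS shRNA, so 23.3% of the control mean remained. Normalised reads are read counts divided by a size factor for each library. Fold changes were fitted with limma on log2(normalised reads + 1), a scale that understates the change of low genes, and a gene was called at a Benjamini-Hochberg adjusted p under 0.05 over 18110 tested genes. For 1 gene in 2 against 2 libraries the smallest p of an exact permutation test, two-sided, is 0.333, so these p-values rest on a spread pooled across genes. Fewer cells of a type and less RNA per cell cannot be told apart in such bulk libraries.

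With DcpS shRNA, the RNA of fibronectin, periostin, thrombospondins 1 and 2, the fibrillins and most small leucine-rich proteoglycans fell, while that of Ccn3, elastin and Mfap4 rose. Of the 50 genes, 46 passed the filter on low counts, and of these 18 were called lower, 3 higher and 25 were not called. Over all tested genes 3.65% were called lower and 2.14% higher (5.79% in either direction), against 39.1% of the tested matrix genes called lower. The median log2 fold change was −0.23 for the tested matrix genes and 0.00074 for all tested genes. Falls of at least 2-fold were called for 4 matrix genes (Fmod, Thbs2, Fbn1 and Postn), 8.70% of those tested against 0.331% of all tested genes. Both DcpS shRNA libraries lay below both controls for 30 matrix genes, 65.2% of those tested, where the same held for 24.0% of all tested genes. Both lay above the controls for 7 matrix genes, against 24.4% of all tested genes, and the groups overlapped for 9. No test of the list as a whole was made. The list was chosen with earlier results of these data known, so these shares are not independent of that choice.

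**Figure D1:**
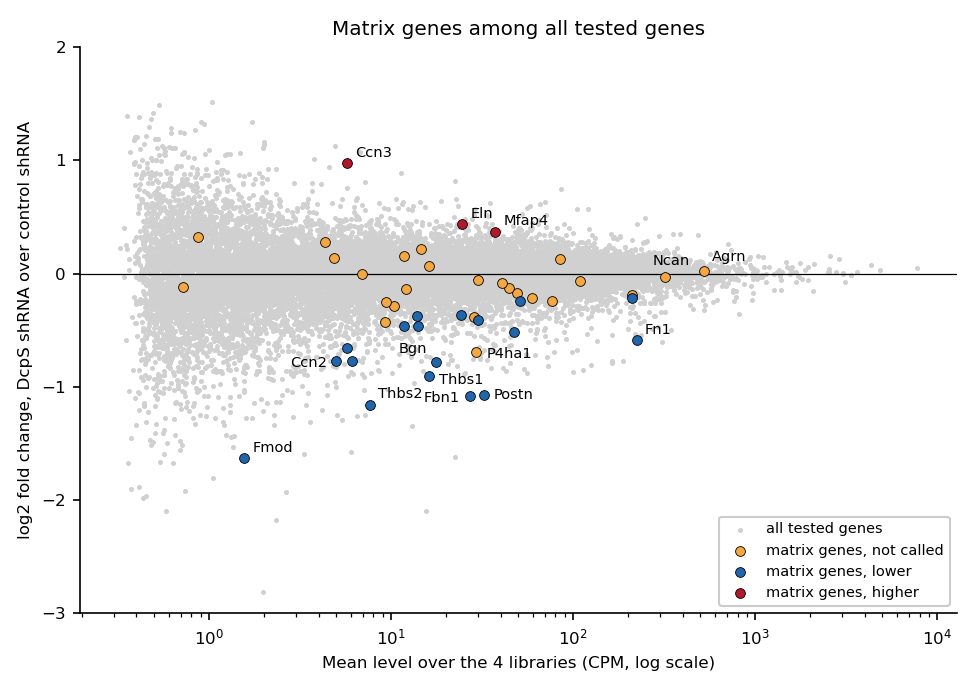
Log2 fold change (DcpS shRNA over control shRNA) against mean level in CPM (reads scaled to library size, log axis) for each of the 18110 tested genes in grey and the 46 tested matrix genes in colour. The 18 matrix genes called lower (blue) range from Fmod at −1.63 to Vcan at −0.22, the 3 called higher (red) reach 0.97 at Ccn3, and the most abundant, Agrn, lies at 0.02.

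The number of lower calls was 15 to 20 when each library was left out in turn, and 14 to 17 of the 18 genes were called again each time. Such a fit leaves 1 library in a group, which is then assumed to vary like the other group. Its spread is drawn largely from all genes. A call gained or lost in these fits therefore says little about how a single gene varies between cultures. Without control 2 the median moved to −0.15. On recovered whole reads, edgeR called 20 matrix genes lower, the 18 among them, and 3 higher; over all tested genes it called 3.78% lower and 1.99% higher (5.77% in either direction). DESeq2 called 10 of the 18 lower, and 3 higher, where it called 2.08% and 0.916% of the genes it tested.

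**Figure D2:**
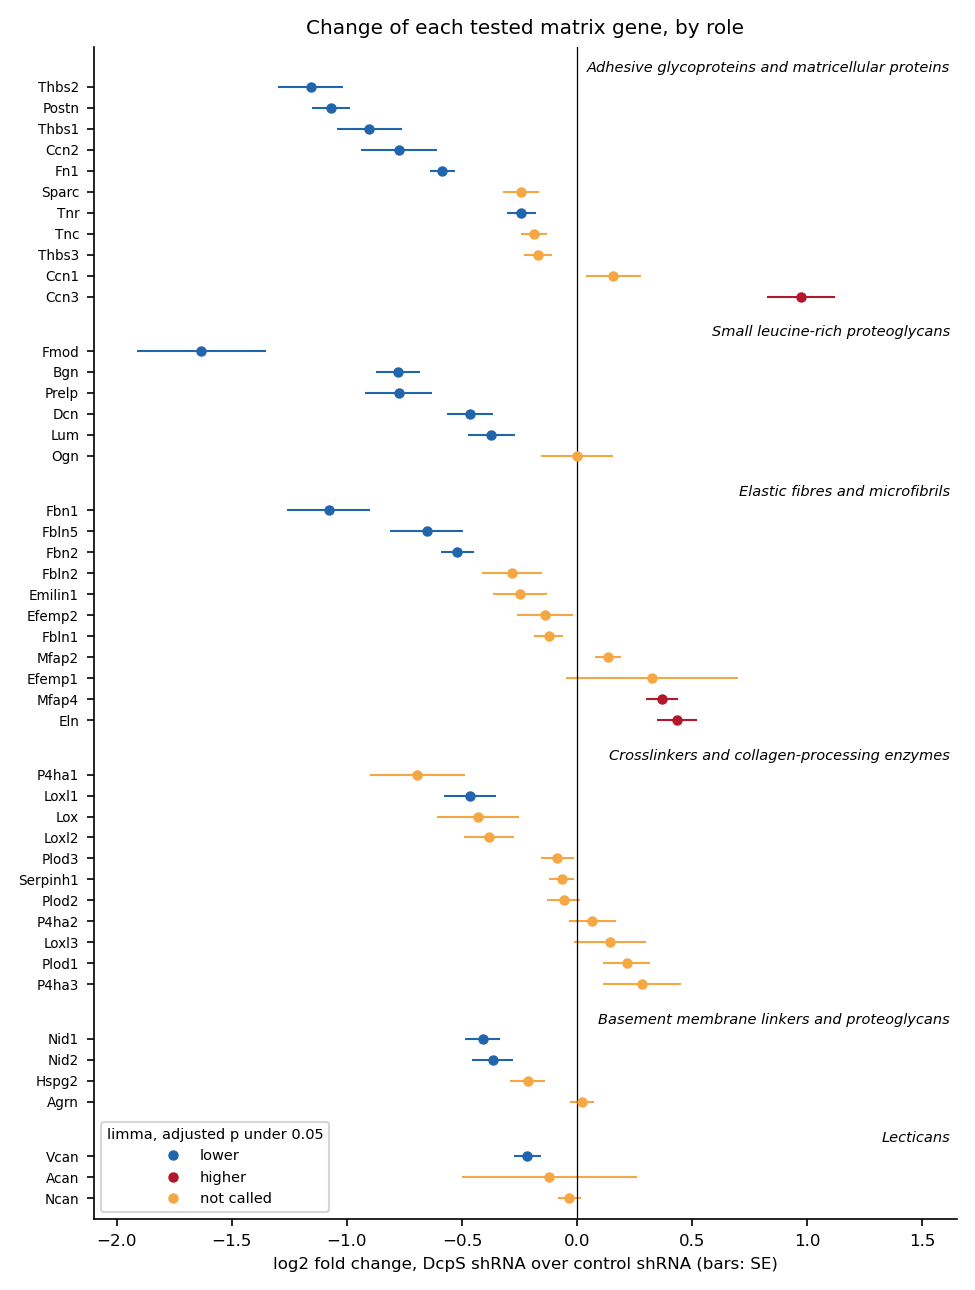
Log2 fold change of each tested matrix gene by role, as points with SE bars; blue was called lower, red higher and orange not called (limma, adjusted p under 0.05). Of the 6 small leucine-rich proteoglycans 5 were called lower, whereas 10 of the 11 tested crosslinkers and collagen-processing enzymes were not called.

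Among adhesive glycoproteins and matricellular proteins, 6 of 11 tested genes fell and 1 rose. Fn1, which encodes fibronectin (chromosome 1, 71585520 to 71653200, minus strand, GRCm38, GENCODE M21), had 5171 and 5462 normalised reads in the control libraries and 3644 and 3437 with DcpS shRNA. Its group means (± SD, n = 2 libraries each) were 5316 ± 206 for control shRNA and 3541 ± 146 for DcpS shRNA, a log2 fold change of −0.59 (SE 0.05; limma, adjusted p 5.80e-06). By control mean it was the most abundant of the called genes per kilobase, and its groups were separated by far more than either pair of replicates.

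Postn (chromosome 3, 54361109 to 54391037, plus strand) encodes periostin, a matricellular protein of collagen-rich tissue. Its normalised reads were 853 and 878 in the control libraries and 382 and 445 with DcpS shRNA, so that 47.7% of the control mean remained. The log2 fold change of −1.07 (SE 0.08) had the smallest adjusted p of the matrix genes (limma, 1.02e-06).

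Of the thrombospondins, matricellular glycoproteins that bind integrins and CD47, the related pair Thbs1 and Thbs2 fell. Thbs2 (chromosome 17, 14665500 to 14694235, minus strand) was at 191 and 229 normalised reads in the controls and at 88.1 and 98.3 with DcpS shRNA (log2 fold change −1.16, SE 0.14; limma, adjusted p 9.33e-05). Thbs1 (chromosome 2, 118111876 to 118127133, plus strand) was at 346 and 489 in the controls and at 206 and 234 with DcpS shRNA (−0.90, SE 0.14; limma, adjusted p 0.00204). The groups did not overlap for either gene, although the controls of Thbs1 differed by 1.41-fold. Thbs3 was not called, with 1014 and 1065 normalised reads in the control libraries and 924 and 922 with DcpS shRNA (log2 fold change −0.17, 95% interval −0.30 to −0.04). Thbs4 was too low to test, at 5.70 and 9.23 normalised reads in the control libraries and 5.45 and 2.24 with DcpS shRNA.

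The CCN family showed both directions. Ccn2, also known as connective tissue growth factor, was at 113 and 137 normalised reads in the controls and at 77.2 and 68.2 with DcpS shRNA (log2 fold change −0.77, SE 0.17; limma, adjusted p 0.0101). Ccn3 (chromosome 15, 54745702 to 54754039, plus strand), the family member known as NOV, was at 78.9 and 73.8 in the controls and at 152 and 150 with DcpS shRNA. Its rise of 0.97 (SE 0.15; limma, adjusted p 0.000729) was the largest of the matrix genes, and its mean was 197% of the control mean. Ccn1, known as CYR61, was at 199 and 244 in the control libraries and 254 and 237 with DcpS shRNA, and these groups overlapped (log2 fold change 0.16, 95% interval −0.10 to 0.41). The call of Ccn2 ended without control 2 (limma, adjusted p 0.0823) and with DESeq2 (adjusted p 0.102).

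Tenascins are large glycoproteins of neural matrix. Tnr, which is bound by lecticans in perineuronal nets, was at 1156 and 1053 normalised reads in the controls and at 942 and 924 with DcpS shRNA (log2 fold change −0.24, SE 0.07; limma, adjusted p 0.0379). The change was small, and the call ended without control 1 (limma, adjusted p 0.379) and with DESeq2 (adjusted p 0.215). Tnc, made by radial glia and astrocytes, was the most abundant gene of its role that was not called, with 4448 and 4480 in the control libraries and 4130 and 3712 with DcpS shRNA (−0.19, 95% interval −0.31 to −0.07; limma, adjusted p 0.0652). Leaving out 1 library gave Tnc −0.27 (without DcpS shRNA 1) to −0.11 (without DcpS shRNA 2). Without an expression filter Tnc was called (limma, adjusted p 0.0233). Sparc, a collagen-binding matricellular protein, was at 1492 and 1819 in the controls and at 1362 and 1418 with DcpS shRNA (−0.25, 95% interval −0.41 to −0.08; limma, adjusted p 0.0960). The controls of Sparc decide its value: it was called without control 1 at −0.39 (limma, adjusted p 0.000537) and was −0.10 without control 2 (adjusted p 0.704). Mgp, an inhibitor of calcification, was too low to test, at 8.55 and 21.5 in the control libraries and 3.63 and 4.47 with DcpS shRNA.

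**Figure D3:**
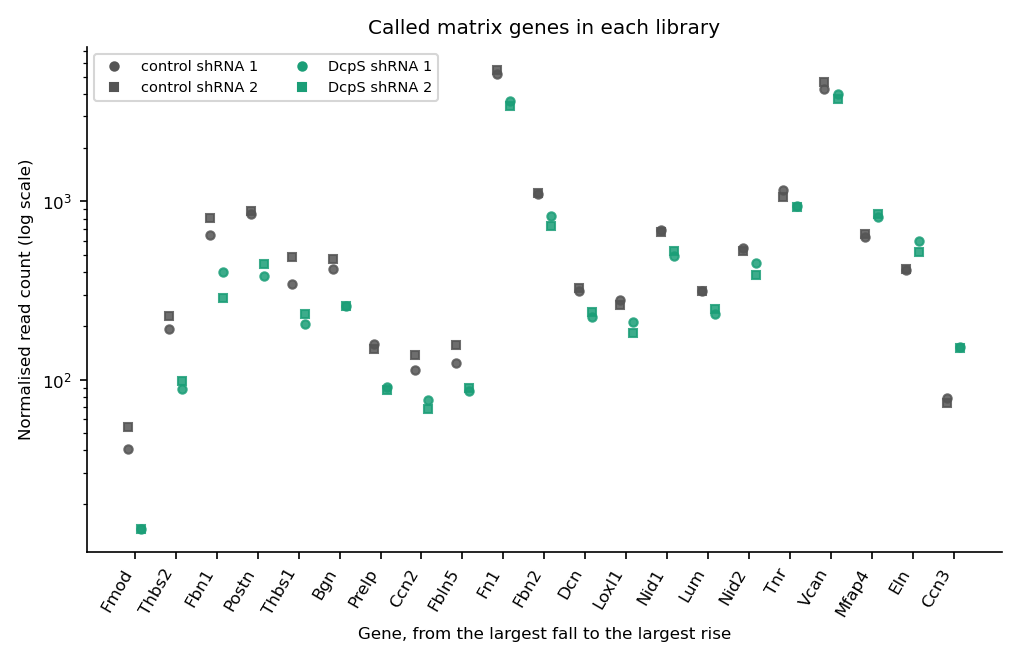
Normalised reads (log axis) of the 21 called matrix genes in each of the 4 libraries, ordered from the largest fall to the largest rise; grey points are control shRNA, green points DcpS shRNA, circles library 1 and squares library 2 of a group. The groups do not overlap for any of the 21 genes, and the wider gaps within a group are those of Fbn1 and Thbs1.

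The small leucine-rich proteoglycans carried the highest share of calls, with 5 of 6 lower and a median log2 fold change of −0.62. Fmod (chromosome 1, 134037254 to 134048277, plus strand) encodes fibromodulin, which binds collagen fibrils and limits their thickness. It was at 40.9 and 54.4 normalised reads in the controls and at 14.5 in both DcpS shRNA libraries. The log2 fold change of −1.63 (SE 0.28; limma, adjusted p 0.00200) was the largest fall of the matrix genes, at a mean level of only 1.57 CPM. Bgn (chromosome X, 73483602 to 73495933, plus strand), which encodes biglycan, was at 419 and 472 in the controls and at 258 and 259 with DcpS shRNA (−0.78, SE 0.10; limma, adjusted p 9.33e-05). Prelp, a heparin-binding member of the family that anchors basement membrane to connective tissue, was at 159 and 148 in the controls and at 90.9 and 87.2 with DcpS shRNA (−0.78, SE 0.14; limma, adjusted p 0.00344).

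The members best known from fibroblasts, decorin and lumican, fell less. Dcn was at 315 and 328 normalised reads in the controls and at 225 and 240 with DcpS shRNA (log2 fold change −0.47, SE 0.10; limma, adjusted p 0.0109). Lum was at 313 in both controls and at 233 and 250 with DcpS shRNA (−0.37, SE 0.10; limma, adjusted p 0.0393). DESeq2 called neither gene (adjusted p 0.103 and 0.286), and the call of Lum also ended without control 1 (limma, adjusted p 0.0973), control 2 (0.106) or DcpS shRNA 1 (0.0980). Ogn, which encodes osteoglycin, was the exception: at 119 and 156 in the control libraries and 125 and 148 with DcpS shRNA, its groups overlapped and its log2 fold change was −0.00080 (95% interval −0.33 to 0.33).

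Genes of elastic fibres and microfibrils were called in both directions, 3 lower and 2 higher of 11 tested. Fbn1 (chromosome 2, 125300594 to 125507993, minus strand) encodes fibrillin-1, the main microfibril protein after birth. It was at 645 and 808 normalised reads in the controls and at 403 and 288 with DcpS shRNA, a mean of 727 ± 115 against 346 ± 81.4 (SD, n = 2 per group). Its log2 fold change of −1.08 had a larger SE (0.18) than genes of like level because each pair of replicates lay far apart (limma, adjusted p 0.0233), and without an expression filter the call ended (limma, adjusted p 0.0947). Fbn2, the fibrillin of embryonic tissue, varied less, with 1106 and 1114 in the control libraries and 825 and 725 with DcpS shRNA (−0.52, SE 0.07; limma, adjusted p 0.000235). Fbln5, a fibulin needed for elastic fibre assembly, was at 124 and 156 in the controls and at 86.3 and 89.4 with DcpS shRNA (−0.65, SE 0.16; limma, adjusted p 0.0210). Its call ended without control 2 (limma, adjusted p 0.209) and with DESeq2 (adjusted p 0.171).

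Elastin moved the other way from the fibrillins. Eln (chromosome 5, 134702593 to 134747323, minus strand) was at 412 and 415 normalised reads in the controls and at 601 and 522 with DcpS shRNA (log2 fold change 0.44, SE 0.09; limma, adjusted p 0.00570). Mfap4 (chromosome 11, 61485431 to 61488900, plus strand), a microfibril-associated glycoprotein that binds elastin and collagen, was at 631 and 659 in the controls and at 818 and 849 with DcpS shRNA (0.37, SE 0.07; limma, adjusted p 0.00344). Both genes were higher in each DcpS shRNA library than in either control, and both calls remained in every alternative run.

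Mfap2, a microfibril component, was the most abundant uncalled gene of this role, at 1652 and 1562 normalised reads in the control libraries and 1747 and 1776 with DcpS shRNA (log2 fold change 0.13, 95% interval 0.01 to 0.25; limma, adjusted p 0.213). The fibulins Fbln1 (−0.12) and Fbln2 (−0.28) and the related Efemp2 (−0.14) and Efemp1 (0.32) were not called either. Nor was Emilin1 (−0.25), which binds elastin at the fibre surface. Efemp1 was close to the filter, at 13.3 and 16.4 normalised reads in the control libraries and 13.6 and 25.7 with DcpS shRNA, and Mfap5 fell under it, at 2.85 and 4.10 against 1.82 and 1.12. Mfap5 thus stood at 1 to 4 reads in each library, where no fold can be read.

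Of the enzymes that crosslink or process collagen, 1 of 11 tested genes was called. Loxl1, a lysyl oxidase linked to elastic fibres, was at 280 and 264 normalised reads in the controls and at 211 and 183 with DcpS shRNA (log2 fold change −0.47, SE 0.11; limma, adjusted p 0.0224). Its call ended without control 1 (limma, adjusted p 0.0736) or DcpS shRNA 2 (0.0820) and with DESeq2 (adjusted p 0.184). Loxl2 was at 561 and 718 in the controls and at 453 and 521 with DcpS shRNA (−0.38, 95% interval −0.62 to −0.15; limma, adjusted p 0.0609). It was called by edgeR (adjusted p 0.0312), and by limma without control 1 at −0.56 (adjusted p 1.31e-05) or DcpS shRNA 2 at −0.48 (adjusted p 0.00153), but was −0.21 without control 2 (adjusted p 0.396) and −0.28 without DcpS shRNA 1 (adjusted p 0.0771). Lox, the founding lysyl oxidase, had the widest gap between controls of the matrix genes above 5 CPM, 165 and 263, with 150 and 159 in the DcpS shRNA libraries (−0.43, 95% interval −0.82 to −0.05; limma, adjusted p 0.211). Lox was called without control 1 at −0.76 (limma, adjusted p 0.000109) and was −0.10 without control 2 (adjusted p 0.887). Loxl3 was at 87.4 and 96.4 against 99.9 and 103 (0.14), and Loxl4 was too low to test, at 8.18 to 10.1 in the 4 libraries.

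P4ha1, a catalytic subunit of the prolyl 4-hydroxylase that stabilises the collagen triple helix, differed between the DcpS shRNA libraries. It was at 707 and 720 normalised reads in the controls and at 354 and 548 with DcpS shRNA, so both were lower, by unequal amounts. Its log2 fold change of −0.69 (SE 0.21) was not called by limma (adjusted p 0.163) or DESeq2 (adjusted p 0.344) and was called by edgeR (adjusted p 0.00336). The value was −1.01 without DcpS shRNA 2 and −0.38 without DcpS shRNA 1. The gap between the DcpS shRNA libraries does not enter either of these fits, and the spread used there is largely pooled across genes. Neither fit therefore shows how P4ha1 varies between cultures. Its paralogues P4ha2 (0.07) and P4ha3 (0.28) were not called.

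Serpinh1, the collagen chaperone HSP47, was the most abundant gene of this role that was not called, at 2231 and 2201 normalised reads in the control libraries and 2054 and 2177 with DcpS shRNA (log2 fold change −0.07, 95% interval −0.18 to 0.05). The lysyl hydroxylases Plod1 (0.21), Plod2 (−0.06) and Plod3 (−0.09), which prepare collagen for crosslinking, were not called. Over the role the median was −0.07, and 7 of the 11 tested genes had a negative log2 fold change.

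In basement membranes, nidogens link the laminin and collagen IV networks, and both nidogen genes fell. Nid1 (chromosome 13, 13437551 to 13512269, plus strand) was at 689 and 671 normalised reads in the controls and at 495 and 527 with DcpS shRNA (log2 fold change −0.41, SE 0.07; limma, adjusted p 0.00293). Nid2 was at 549 and 529 in the controls and at 452 and 386 with DcpS shRNA (−0.37, SE 0.09; limma, adjusted p 0.0224). The groups did not overlap for either gene, but the call of Nid2 ended without control 1 (limma, adjusted p 0.0514) or DcpS shRNA 2 (0.114) and with DESeq2 (adjusted p 0.146). Hspg2, which encodes perlecan, was at 1177 and 1348 against 1162 and 1012 (−0.22, 95% interval −0.38 to −0.05; limma, adjusted p 0.129). It was called at −0.31 without control 1 (limma, adjusted p 0.0160) or without DcpS shRNA 1 (adjusted p 0.000939), and was −0.12 without control 2 (adjusted p 0.649) or DcpS shRNA 2 (adjusted p 0.418). Agrn, the agrin gene that neurons use at the neuromuscular junction, was at 10220 and 10285 normalised reads in the controls and at 10744 and 10058 with DcpS shRNA. These groups overlapped, and the 95% interval of its log2 fold change ran from −0.09 to 0.13.

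Lecticans are chondroitin sulfate proteoglycans that bind hyaluronan in brain matrix. Vcan, which encodes versican, was at 4289 and 4701 normalised reads in the controls and at 3981 and 3751 with DcpS shRNA (log2 fold change −0.22, SE 0.06; limma, adjusted p 0.0347). The call ended without control 2 (limma, adjusted p 0.439) and with DESeq2 (adjusted p 0.0762). Ncan, which encodes neurocan, the lectican of young neurons, was at 6214 and 6600 in the controls and at 6300 and 6217 with DcpS shRNA, and these groups overlapped (−0.03, 95% interval −0.14 to 0.08). Acan, which encodes aggrecan, stood at 10.9 to 16.8 in the 4 libraries (−0.12, 95% interval −0.92 to 0.68), too low to show a small change.

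Levels were compared between genes per kilobase of annotated exon. On that scale the highest control means were those of Mfap2 (1327 normalised reads per kilobase), Agrn (1104), Serpinh1 (907), Ncan (891) and Tnc (574), and none of these 5 was called. Fn1 followed at 455, and the other lower genes ran from Vcan at 311 and Lum at 128 down to Fbln5 at 20.2 and Fmod at 14.4. Median level over all 4 libraries was 64.4 per kilobase for the lower matrix genes, 104 for those not called and 98.1 for all tested genes. The DcpS shRNA libraries enter these medians, so the falls themselves lower the first of them. Median exonic length was 6505 bases for the lower matrix genes and 4778 for those not called, beside 6073 for all lower genes and 3763 for all tested genes, and a part of length in the calls was not tested.

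A pair of 7-base words, ACGTGCA and CACGTGC, was examined because earlier work on these libraries had found them often in lower genes. Both words are in both annotated protein-coding transcripts of Dcps, and the hairpin's own sequence is not given in the sources used here. In the longest annotated 3′ UTR, 32.2% of all called lower genes held either word, against 7.35% of all tested genes scanned. Among the matrix genes called lower, 1 of 18 did (5.56%), which was Fbn2, and of those not called 2 of 25 did, Fbln1 and P4ha1. The sites are shown with flanking bases for Dcps and for the uncalled genes, 5′ to 3′, with the overlapped words in capitals (GRCm38, transcripts of GENCODE M21).
Dcps, chr9:35124747-35124772, minus strand: tatcacctgCACGTGCAtttcacagc
P4ha1, chr10:59371551-59371576, plus strand: ctgctattcCACGTGCAgagttccta
Fbln1, chr15:85285296-85285321, plus strand: ttgtatggcCACGTGCAttaggctga
All 3 sites hold the full 8-base run. Fbln1 was at 929 and 910 normalised reads in the control libraries and 841 and 846 with DcpS shRNA (log2 fold change −0.12, 95% interval −0.26 to 0.01), whereas P4ha1 had the values given above. With all genes that hold a word left out of the fit, 17 matrix genes were called lower and 3 higher. Median 3′ UTR length was 1934 bases for all called lower genes, 1621.5 for the matrix genes called lower and 1228 for all tested genes. A part of this length in the shares of genes that hold a word was not tested. A match of letters does not show that a site was used.

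Promoter windows of 250 bases before to 50 after the start were at hand in RefSeq (GRCm38.p6) for 33 of the 50 genes, among them 10 of the lower and none of the higher genes. Motifs were picked after the values were seen and searched on both strands. GGAATG, the core bound by TEAD factors, was found for 6 of the 33 genes (18.2%), against 14.7% of tested genes with a window, and for 1 of the 10 lower genes, Nid1. The 33 genes include some that were not tested, among them Thbs4, which held this core. The reference shares given beside them are of tested genes only. The SP1 motif GGGCGG was found for 24 of the genes with a window, 72.7% against 67.0% of tested genes. These included 5 of the 10 lower genes and 17 of the 21 uncalled genes. A TATA box, searched as TATAAA, was found for 8 of the genes, 24.2% against 8.99%. It was found for 2 of the 10 lower genes, Postn and Thbs2, and for 6 of the 21 uncalled genes. The AP-1 motif TGANTCA was found for 1 gene, the uncalled Efemp1 (3.03% against 6.01%). The TEAD matches of a lower and an uncalled gene are shown with the motif in capitals, as read along the gene's strand, where that of Ccn1 is the reverse complement.
Nid1, from a window at chr13:13437352-13437651, plus strand: gttggatccGGAATGctgggaacc
Ccn1, from a window at chr3:145649936-145650235, minus strand: gccaaccaaCATTCCtgagatgtt
The matches began 165 bases before the start of Nid1 and 103 before that of Ccn1. Nid1 fell and Ccn1 was not called.

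Summed markers of several other cell types were also lower with DcpS shRNA. The 14 meningeal fibroblast markers, none of them among the 50 genes, summed to 10648 and 11797 normalised reads in the control libraries and to 6796 and 6385 with DcpS shRNA, 58.7% of the control mean. Of 13 tested, 5 were called lower, among them Col1a1, Col1a2 and Col3a1, and 0 higher. Without these collagens the other fibroblast markers summed to 1026 and 1116 against 893 and 782 (78.2%), and 2 of 10 tested were lower, Pdgfra and Tbx18. Of these 10, 8 had a negative log2 fold change, whereas Crabp2 (0.49) and Slc6a13 (0.36) were positive and not called. Cyp1b1, the most abundant of them, was at 494 and 515 against 467 and 391 and was not called. No fibroblast marker was at 0 in any library.

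Pericyte and smooth muscle markers summed to 1369 and 1390 normalised reads in the control libraries and 1183 and 1114 with DcpS shRNA (83.3% of the control mean), with 2 of 8 tested called lower. Astrocyte markers summed to 5964 and 6129 against 5171 and 5405 (87.5%), with 3 of 7 lower. Endothelial markers were scarce, at 166 and 216 against 134 and 142, with 1 of 5 tested lower and with Tek, Tie1 and Cldn5 at 0 in at least 1 library. Of these 5, 4 had a negative log2 fold change. Kdr, the 1 called, was at 84.6 and 109 against 58.1 and 55.9. Pecam1 was higher, at 5.70 and 12.3 against 20.0 and 14.5, and was not called. Microglia and macrophage markers were at 188 and 192 against 154 and 177, with 0 of 7 called, and P2ry12 and Trem2 at 0 in at least 1 library. The summed level of each of these lists was lower in both DcpS shRNA libraries than in both controls, and so was that of the neuron markers below. Single markers went both ways. Of the 8 tested pericyte and smooth muscle markers 6 had a negative log2 fold change, whereas Notch3, the most abundant of them, was at 0.16 and not called. The part of any of these cell types in the matrix result was not tested.

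The sums of the other lists moved less. Neuron markers summed to 100991 and 99230 normalised reads in the control libraries and to 96418 and 95677 with DcpS shRNA (95.9% of the control mean), with 2 of 10 lower and 2 higher, so the labelled cell type was present in every library. Radial glia markers summed to 38002 and 36288 against 37913 and 36903 (101%), with 1 of 9 lower and 1 higher. Oligodendrocyte lineage markers summed to 566 and 592 against 578 and 591 (101%), with 0 lower and 1 higher of 6 tested. This sum holds opposite changes. Of the 6 tested, 5 had a negative log2 fold change, among them Olig1 (−0.58) and Olig2 (−0.79), neither called. Mbp, the 1 called higher, was at 164 and 193 against 240 and 253.

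**Figure D4:**
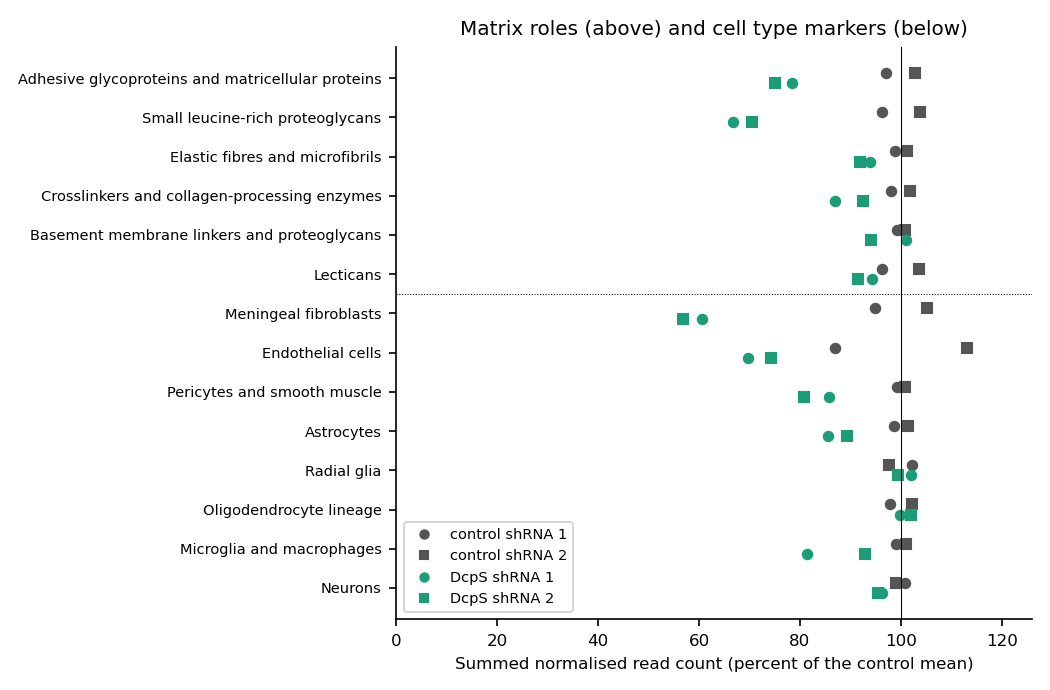
Summed normalised reads of each role of matrix genes (above the dotted line) and of each list of cell type markers (below it), in each library, as a percentage of the control mean; grey is control shRNA, green DcpS shRNA, circles library 1 and squares library 2. The small leucine-rich proteoglycans stand at 68.6% of the control mean with DcpS shRNA and the meningeal fibroblast markers at 58.7%, while neuron markers stand at 95.9% and radial glia markers at 101%.

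Other genes of the matrix outside the 50 were changed in both directions. Of 72 tested genes on lists of other matrix glycoproteins, proteoglycans and collagen-processing enzymes, 9 were lower (12.5%, against 3.65% of all tested genes) and 4 higher, with a median log2 fold change of −0.11. Among called genes above 5 CPM, the larger falls were in Npnt, the integrin ligand nephronectin (−0.89, SE 0.14), Fkbp14, a collagen-folding prolyl isomerase (−0.74, SE 0.13), the testican Spock2 (−0.64, SE 0.07), Frem2 of the Fraser complex (−0.62, SE 0.14) and Sparcl1, a relative of Sparc (−0.45, SE 0.06). The rises were in Cspg5 (0.26, SE 0.07), Ppib, a collagen-folding cyclophilin (0.23, SE 0.06), the brain lectican Bcan (0.23, SE 0.06) and the glypican Gpc4 (0.21, SE 0.06). Adjusted p-values of these 9 genes ran up to 0.0359 (limma). Lower calls on these lists numbered 6 without control 2 and 16 without DcpS shRNA 1, and higher calls 1 without either control. DESeq2 called 5 lower and 0 higher on these lists, where it called 10 and 3 among the 50.

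Exons of 11 of the 21 called genes overlap an annotated gene on the opposite strand. The longest shared stretch was 2442 bases, between Fbn1 and Gm9913, which stood at a mean of 2.45 normalised reads in the controls and 0.454 with DcpS shRNA. Of these neighbours only Apol7d, Mapk7 and Rtraf were tested, and none of them was called. Gm9913, Gm15270 and Gm30003 were too low to test, and the rest are not in the table. Whether reads were counted by strand is not given in the sources used here, so reads of such pairs cannot be told apart.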

How the data were processed

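RNA was sequenced from 2 control shRNA and 2 DcpS shRNA cultures. The submitters' processing notes name HISAT2 2.2.0, SAMtools 1.3.1, Picard, featureCounts and DESeq2, with genome build GRCm38; the sources used here give neither annotation nor strand setting. The deposited values are a signal scaled by the authors: each is a whole multiple of its column's smallest positive value, and dividing by it gave whole reads for 100% of values (tolerance 0.001). The implied factors, 0.895 to 1.10, equal median-of-ratios size factors, a scaling that cannot show a shift of all transcripts together. A count of 0 allows up to 3 reads, 0.138 to 0.169 CPM, for counting error only.

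Values were tested as log2(value + 1) with limma 3.58.1 (trend, robust, group only) after edgeR's filterByExpr (minimum count 10), in R 4.3.3. edgeR 4.0.16 (1045 genes called) and DESeq2 1.42.0 on recovered reads were alternatives, as were scalings, pseudocounts, no filter, a replicate block and leaving out each library. Called genes, the most abundant uncalled gene of each role and genes called only by a count test were named, and of related genes above 5 CPM up to 5 falls and 5 rises. Members and lists were chosen with earlier results of these data known.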

Additional observations from a re-analysis of the deposited data

How the results depend on the processing

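All 21 called matrix genes kept their direction in each of the 14 alternatives that gave them a value, and 12 kept their call in each. DESeq2 moved the counts: 448 genes were called in all in place of 1048, 10 matrix genes lower in place of 18, and among related matrix genes 5 lower in place of 9 and 0 higher in place of 4. Leaving out 1 library gave 747 to 1745 called genes, the highest without DcpS shRNA 1, with 15 to 20 matrix genes lower and 3 higher each time, and among related genes 6 to 16 lower and 1 to 6 higher. The set numbers in the titles could name a shared preparation, but deviations of same-numbered libraries were nearly uncorrelated (r = 0.043 over 18110 genes). With these numbers as a replicate block, limma called 1626 genes, 23 matrix genes lower and 3 higher, and 14 related genes lower, and edgeR 23 matrix genes lower and 3 higher. The block ended the limma call of Fbn1 (adjusted p 0.299) and no other call among the matrix genes. Other scalings, pseudocounts and no filter left 18 to 20 matrix genes lower. Without a filter limma called Sparc, Tnc and Loxl2 lower (adjusted p 0.0449, 0.0233 and 0.0225) and no longer called Fbn1. The fit without the word-holding genes, chosen after seeing the data, gave 17. The cause of these differences was not tested, apart from the fewer libraries in the fits that leave one out. Levels under about 20 normalised reads, as for Acan and Efemp1, limit what can be seen.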
